A study of Mus musculus with 77 samples.

Results

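Fatty acid oxidation genes and other targets of PPAR-alpha (peroxisome proliferator-activated receptor alpha) were followed in mouse liver. The 41 genes came from a list of symbols ordered by step of the pathway, drawn up with earlier results of these data known, out of 55487 genes in the count table. The rule itself names genes and applies no measured value. All 41 were found and all 41 passed the filter on low counts. The samples were RNA sequencing libraries of whole liver from 77 male C57BL/6JRj mice, 1 library per mouse. DIO-MASH mice, a model of diet-induced obesity and metabolic dysfunction-associated steatohepatitis, had eaten the Gubra Amylin NASH diet, which is rich in fat, fructose and cholesterol, for months before treatment. They entered after a liver biopsy that had to show marked steatosis, and were housed singly. The model rests on diet alone, in 1 inbred strain and 1 sex.

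DIO-MASH mice were killed after 8, 16 or 24 weeks of 1 of 3 regimens. Semaglutide, a long-acting GLP-1 receptor agonist, was given under the skin every day at 123 µg/kg with the diet continued, to 7, 8 and 8 mice. Chow reversal, in which the diet was replaced by chow and vehicle was injected, was given to 7, 8 and 8 mice. Vehicle with the diet continued was given to 9, 8 and 7 mice. A further 7 mice, called chow mice here, ate chow throughout and received vehicle for 24 weeks. Levels are CPM, counts scaled to a common library size, after TMM scaling. Differences are log2 fold changes ± SE from 1 edgeR quasi-likelihood fit of all 10 groups, and a gene passed at an adjusted p under 0.05 (Benjamini-Hochberg, 14904 genes).

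The liver burns fatty acids in several compartments. Long-chain acids are taken up, bound, activated to acyl-CoA and carried into mitochondria by the carnitine shuttle, where beta-oxidation shortens them and passes electrons to the respiratory chain. Peroxisomes shorten very long chains, Cyp4a enzymes of the endoplasmic reticulum oxidize the omega end, and thioesterases release free acids from acyl-CoA. PPAR-alpha is a nuclear receptor that fatty acids activate, pairs with the retinoid X receptor, and is known for switching these genes on in hepatocytes during fasting.

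The receptor pair binds a direct repeat with a spacing of 1 base, searched here as AGGNCANAGGNCA on both strands of RefSeq promoters (GRCm38.p6) from 250 bases before to 50 after each start. Promoters were matched for 33 of the 41 genes, and the 8 others were Cyp4a10, Cyp4a12a, Cyp4a14, Cyp4a31, Vnn1, Acaa2, Decr1 and Hsd17b4. The repeat was found in 1 of the 33, against 0.451% of the 27025 genes with a promoter. The half-site AGGTCA, which the repeat can contain, was found in 7 of the 33 (21.2%), against 18.1% of those genes. The repeat was in Fabp1, the abundant fatty acid binding protein of hepatocytes, on the minus strand. Its promoter is shown as the 1 window that holds the letters of the receptor's element (chr6:71199629-71199928, plus strand, repeat in capitals).
Fabp1: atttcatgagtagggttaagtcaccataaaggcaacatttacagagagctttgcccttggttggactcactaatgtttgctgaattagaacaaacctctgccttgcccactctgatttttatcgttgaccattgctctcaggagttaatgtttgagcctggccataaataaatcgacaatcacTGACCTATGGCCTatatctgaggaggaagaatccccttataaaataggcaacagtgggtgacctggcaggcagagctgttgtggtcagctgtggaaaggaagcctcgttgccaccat
The match is a description of letters and not a measured site, and no match says only that the letters were not in the window.

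Library totals ranged from 8883190 to 37631125 counts with a median of 16406976. Predicted genes took 3.34 to 4.11% of counts in 3 semaglutide libraries, mice 7 and 8 of 16 weeks and mouse 8 of 24 weeks, and 1.07 to 2.74% in the other 74. Single libraries that stood apart also touched the 41 genes. In chow reversal mouse 7 of 24 weeks, 39 of the 41 were below all 7 other mice of its group and 34 were at their lowest of all 77 libraries, with a median distance of -1.27 log2 units from the group median. The acute phase transcripts Saa1 (3050.0 CPM), Saa2 (2796 CPM), Orm2 (1539 CPM) and Lcn2 (914 CPM), chosen after their values were seen, were at their highest of all 77 libraries in that mouse. Saa1 and Saa2 were next highest in semaglutide mouse 8 of 24 weeks, at 2838 and 1613 CPM. Semaglutide mouse 3 of 16 weeks followed, at 1766 and 1137 CPM. The next highest values of Orm2 and Lcn2 in any library were 511 and 458 CPM. Its summed hepatocyte markers (84685 CPM) were the lowest of its group. In chow mouse 5, Cyp4a12a was 1214 CPM and Orm2 511 CPM, and the other 6 chow mice had at most 249 CPM of Cyp4a12a. Semaglutide mouse 7 of 16 weeks held 877 CPM of striated muscle markers, against at most 1.79 CPM in any other library. Results that rest on these libraries are given with and without them.

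The comparison of vehicle with chow mice at 24 weeks asked what the diet and the disease did to the pathway. In vehicle mice 21 of the 41 genes were lower and 4 were higher, against 22.0% lower and 25.8% higher among all genes tested. The median log2 fold change was -0.31 over the 41 genes and -0.02 over all genes. The lower genes were 3 of 4 of activation and shuttle, 4 of 10 of mitochondrial beta-oxidation, 2 of 3 of electron transfer, 5 of 9 of peroxisomal oxidation, 4 of 5 of omega oxidation, 2 of 4 thioesterases and 1 of 3 of uptake and binding. The higher genes were Cd36, Vnn1, Acot2 and Pex11a. Without chow mouse 5 the counts were 20 lower and 3 higher, since Acot4 and Pex11a no longer passed. Among all genes in that fit 21.8% were lower and 25.8% higher. Scaling moved this comparison: with library totals in place of TMM the median of all genes shifted by 0.42. Of all 14904 genes, 7776 were then higher and 887 lower (89.76% of calls higher), against 3849 higher and 3272 lower with TMM. Of the 41 genes, 12 were higher and 7 lower with library totals.

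**Figure D1:**
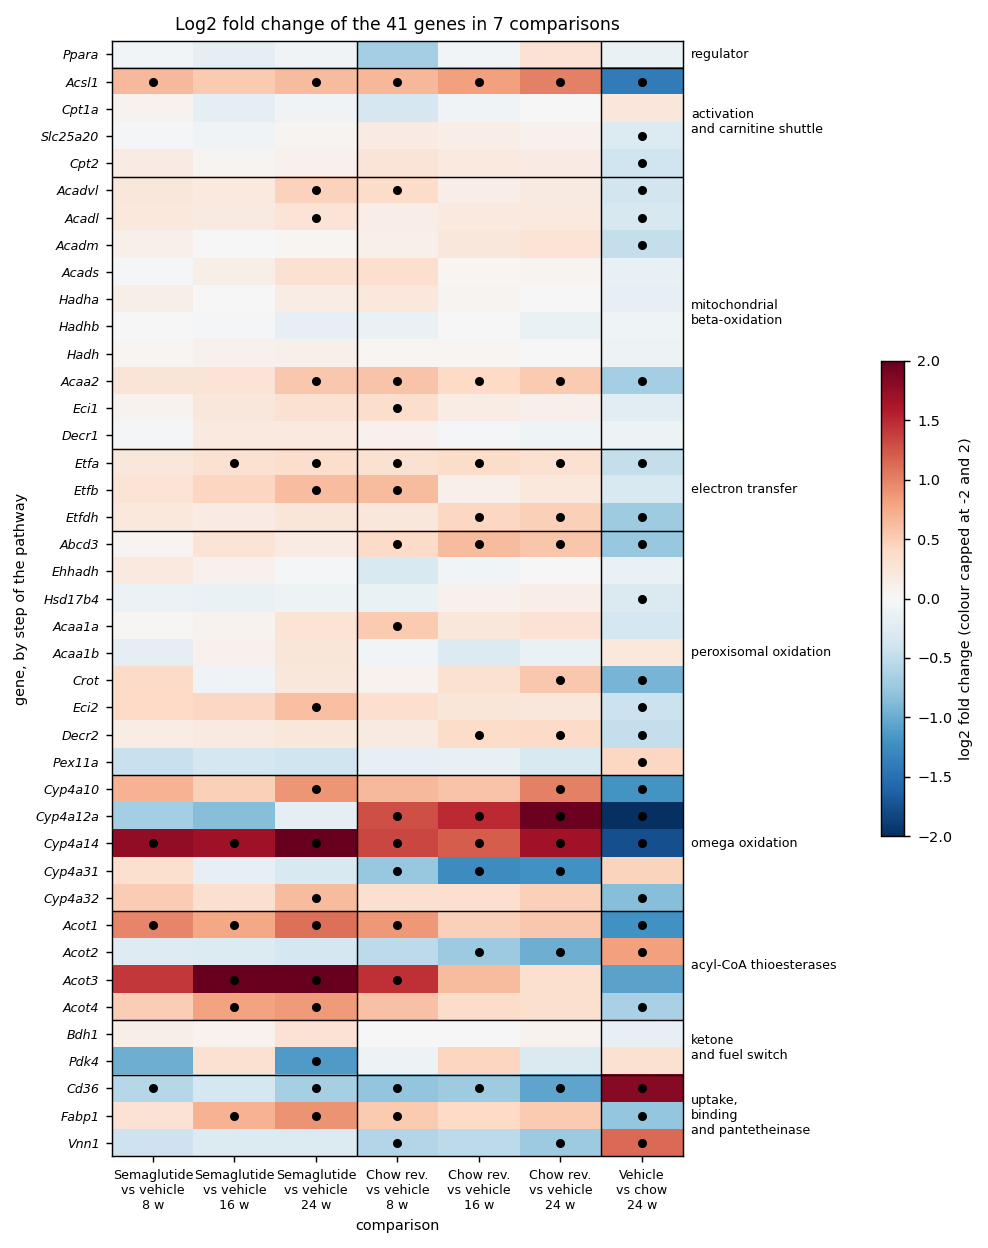
Log2 fold change of each of the 41 genes (rows, by step of the pathway) in 7 comparisons (columns). Colour gives the log2 fold change, capped at -2 and 2, and a black dot marks an adjusted p under 0.05 by edgeR. Vehicle against chow has 21 lower and 4 higher genes, and Cyp4a14 is higher in all 6 comparisons of a treatment with vehicle.

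In bulk liver, fewer cells of a type and less RNA per cell cannot be told apart. All 9 hepatocyte markers tested were lower in vehicle mice, with sums of 52718 to 67711 CPM, against 118956 to 148738 CPM in chow mice. Of 10 macrophage markers 8 were higher, with sums of 824 to 1312 CPM in vehicle mice, against 113 to 393 CPM in chow mice. All 10 stellate cell markers were higher, with sums of 518 to 884 CPM in vehicle mice, against 149.6 to 226 CPM in chow mice. Their part in the results on oxidation genes was not tested.

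Ppara itself (chromosome 15, 85734983 to 85802819, plus strand, GRCm38) passed in no comparison. At 24 weeks it ranged from 22.98 to 95.4 CPM with a median of 44.1 in semaglutide mice and from 18.7 to 96.5 CPM with a median of 68.7 in chow reversal mice. It ranged from 15.9 to 81.7 CPM with a median of 51.8 in vehicle mice and from 20.4 to 84.2 CPM with a median of 61.2 in chow mice. The 4 groups overlapped over most of their ranges, and single mice of a group differed several-fold. The log2 fold change was -0.07 ± 0.35 for semaglutide against vehicle, 0.29 ± 0.35 for chow reversal against vehicle and -0.13 ± 0.36 for vehicle against chow.

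Acsl1, the long-chain acyl-CoA synthetase at the entry to the pathway (chromosome 8, 46471037 to 46536051, plus strand), ranged from 177 to 478 CPM with a median of 333 in vehicle mice, against 572 to 1112 CPM with a median of 989 in chow mice. Vehicle and chow mice did not overlap, and Acsl1 fell by 1.40 ± 0.22 (adjusted p = 1.01e-07). At 24 weeks semaglutide mice had 275 to 834 CPM with a median of 549.9, and 6 of 8 mice were above every vehicle mouse. With semaglutide Acsl1 rose by 0.65 ± 0.20 (adjusted p = 0.0381) at 8 weeks, was 0.53 ± 0.20 (adjusted p = 0.06805) at 16 weeks, which did not pass, and at 24 weeks rose by 0.63 ± 0.21 (adjusted p = 0.01899). The chow reversal mice had 166 to 943 CPM with a median of 735 at 24 weeks. The lowest was mouse 7, and the other 7 were above every vehicle mouse. With chow reversal Acsl1 rose by 0.67 ± 0.20 (adjusted p = 0.00727), 0.82 ± 0.20 (adjusted p = 0.000898) and 1.01 ± 0.21 (adjusted p = 7.75e-05) at 8, 16 and 24 weeks.

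Cpt1a, the rate-limiting carnitine palmitoyltransferase of the outer membrane, passed in no comparison, and was 0.23 ± 0.19 in vehicle against chow mice. Cpt2, its partner on the inner membrane, ranged from 97.3 to 146 CPM with a median of 130.4 in vehicle mice, against 115 to 193 CPM with a median of 169 in chow mice. The groups overlapped, and Cpt2 fell by 0.40 ± 0.12 (adjusted p = 0.00323). Slc25a20, the carrier that moves acylcarnitines between both, fell by 0.28 ± 0.11 (adjusted p = 0.02601), and was -0.23 (adjusted p = 0.0525) with a block on library number. With library totals both had the other sign, at 0.03 for Cpt2 and 0.14 for Slc25a20, where the median of all genes had shifted by 0.42. Cpt2 ranged from 112 to 155 CPM with a median of 137 in semaglutide mice and from 62.6 to 172 CPM with a median of 149 in chow reversal mice at 24 weeks. Its fold change did not pass against vehicle for either, and without chow reversal mouse 7 it was 0.29 ± 0.10 (adjusted p = 0.0115), with Slc25a20 at 0.21 ± 0.09 (adjusted p = 0.0471).

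Of the 10 mitochondrial beta-oxidation genes, Acadvl, Acadl, Acadm and Acaa2 were lower in vehicle than in chow mice. The other 6 (Acads, Hadha, Hadhb, Hadh, Eci1 and Decr1) did not pass there, with log2 fold changes from -0.21 to -0.08. Acaa2, the thiolase that closes each round, ranged from 576 to 986 CPM with a median of 673 in vehicle mice, against 828 to 1366 CPM with a median of 1131 in chow mice. Of 7 vehicle mice 6 were below every chow mouse, and Acaa2 fell by 0.69 ± 0.14 (adjusted p = 1.71e-05). Semaglutide mice of 24 weeks ranged from 805 to 1348 CPM with a median of 986, with 4 of 8 mice above every vehicle mouse, and it rose by 0.54 ± 0.13 (adjusted p = 0.00144). At 24 weeks chow reversal mice had 527 to 1360.4 CPM with a median of 1039, with 6 of 8 above every vehicle mouse. With chow reversal it rose by 0.57 ± 0.13, 0.40 ± 0.13 and 0.52 ± 0.13 (adjusted p = 0.000964) at 8, 16 and 24 weeks, whereas with semaglutide it was 0.26 ± 0.13 (adjusted p = 0.238) and 0.28 ± 0.13 (adjusted p = 0.134) at the first 2 times.

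Acadm, the medium-chain acyl-CoA dehydrogenase, ranged from 196 to 299 CPM with a median of 283 in vehicle mice, against 279.5 to 411 CPM with a median of 384 in chow mice. The ranges met over a narrow stretch, and Acadm fell by 0.47 ± 0.14 (adjusted p = 0.00396). At 24 weeks it ranged from 155 to 397 CPM with a median of 273 in semaglutide mice, which spread on both sides of the vehicle mice, and the log2 fold change was 0.04 ± 0.14 (adjusted p = 0.8696). In chow reversal mice it ranged from 166 to 387 CPM with a median of 346, and 6 of 8 were above every vehicle mouse. The chow reversal value was 0.27 ± 0.14 (adjusted p = 0.112) with all 8 mice and 0.39 ± 0.13 (adjusted p = 0.009997) without mouse 7. The very-long-chain and long-chain dehydrogenases Acadvl and Acadl rose with semaglutide at 24 weeks, by 0.45 ± 0.14 (adjusted p = 0.0155) and 0.27 ± 0.10 (adjusted p = 0.0322). Acadl was 0.22 (adjusted p = 0.0878) with a block on library number. When no other group was fitted, Acadvl was 0.46 (adjusted p = 0.0990) and Acadl 0.27 (adjusted p = 0.0818). Against chow, Acadvl and Acadl fell in vehicle mice by 0.37 ± 0.15 and 0.31 ± 0.10 and were 0.05 and 0.11 with library totals. The Acadvl call was also lost with RLE factors (adjusted p = 0.0628), with DESeq2 (adjusted p = 0.0562) and with low counts unfiltered (adjusted p = 0.0561). Hadha and Hadhb, the subunits of the trifunctional protein, and Hadh, Acads and Decr1 passed in no comparison, and 23.3% of the 31-base words of Hadhb recur in other genes, so that its counts are uncertain.

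Electrons leave the acyl-CoA dehydrogenases through the flavoprotein of Etfa and Etfb and through Etfdh. Etfa ranged from 269.98 to 336 CPM with a median of 302 in vehicle mice, against 360.1 to 462 CPM with a median of 410.04 in chow mice. There was no overlap between these groups, and Etfa fell by 0.47 ± 0.08 (adjusted p = 2.51e-06). The semaglutide mice had 321 to 476 CPM with a median of 381 at 24 weeks, and 7 of 8 were above every vehicle mouse. With semaglutide Etfa was 0.23 ± 0.08 (adjusted p = 0.0693) at 8 weeks, which did not pass, and it rose by 0.30 ± 0.08 (adjusted p = 0.00707) at 16 weeks, where it was 0.21 (adjusted p = 0.0935) with a block on library number and 0.31 (adjusted p = 0.0845) when no other group was fitted. At 24 weeks it rose by 0.35 ± 0.08 (adjusted p = 0.000890). Chow reversal mice of 24 weeks ranged from 241 to 449 CPM with a median of 384, and it rose by 0.30 ± 0.08 (adjusted p = 0.00213), 0.37 ± 0.08 (adjusted p = 0.000120) and 0.31 ± 0.08 (adjusted p = 0.00166) at the 3 times.

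Etfdh ranged from 143 to 216 CPM with a median of 183 in vehicle mice, against 235 to 334 CPM with a median of 300.4 in chow mice. The groups did not overlap, and Etfdh fell by 0.72 ± 0.12 (adjusted p = 1.06e-06). At 24 weeks chow reversal mice had 132 to 309 CPM with a median of 269, with 7 of 8 above every vehicle mouse, and it rose at 16 weeks by 0.41 ± 0.11 (adjusted p = 0.00401) and at 24 weeks by 0.47 ± 0.12 (adjusted p = 0.001096). The semaglutide mice had 149 to 261 CPM with a median of 235 at 24 weeks, and its value of 0.25 ± 0.12 (adjusted p = 0.118) did not pass. Etfb rose with semaglutide at 24 weeks by 0.62 ± 0.22 (adjusted p = 0.0349, or 0.0778 with a block on library number) and with chow reversal at 8 weeks by 0.64 ± 0.22 (adjusted p = 0.0182), but 49.9% of its 31-base words recur in other genes, chiefly in the overlapping gene Gm45233, so that its counts are uncertain.

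In peroxisomes, 5 of 9 genes were lower in vehicle than in chow mice, namely Abcd3, Hsd17b4, Crot, Eci2 and Decr2. Crot, the carnitine octanoyltransferase that hands on shortened chains, ranged from 225 to 401 CPM with a median of 312 in vehicle mice, against 397 to 823 CPM with a median of 550.4 in chow mice. Of 7 vehicle mice 6 were below every chow mouse, and Crot fell by 0.94 ± 0.16 (adjusted p = 1.86e-06). Chow reversal mice of 24 weeks ranged from 283 to 599.9 CPM with a median of 449, with 6 of 8 above every vehicle mouse, and Crot rose by 0.54 ± 0.16 (adjusted p = 0.00517). At 24 weeks semaglutide mice had 242 to 505 CPM with a median of 357, and the value of 0.22 ± 0.16 (adjusted p = 0.309) did not pass.

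Abcd3, an acyl-CoA transporter of the peroxisomal membrane, ranged from 291 to 406 CPM with a median of 376 in vehicle mice, against 374 to 768 CPM with a median of 660.4 in chow mice. The groups overlapped, with 3 of 7 vehicle mice below every chow mouse, and Abcd3 fell by 0.76 ± 0.15 (adjusted p = 1.35e-05). The chow reversal mice had 191 to 747 CPM with a median of 579 at 24 weeks, and 6 of 8 were above every vehicle mouse. It rose with chow reversal by 0.38 ± 0.14 (adjusted p = 0.02595), 0.64 ± 0.14 (adjusted p = 0.000185) and 0.55 ± 0.14 (adjusted p = 0.00146) at the 3 times. Semaglutide mice of 24 weeks ranged from 332 to 511 CPM with a median of 401, and the value of 0.17 ± 0.14 (adjusted p = 0.394) did not pass.

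Eci2, an enoyl-CoA isomerase, was the 1 peroxisomal gene that rose with semaglutide at 24 weeks, by 0.61 ± 0.16 (adjusted p = 0.002598). Decr2, a reductase for unsaturated chains, rose with chow reversal at 16 weeks by 0.36 ± 0.12 (adjusted p = 0.0188) and at 24 weeks by 0.38 ± 0.13 (adjusted p = 0.0154). The value at 24 weeks was 0.37 (adjusted p = 0.127) when no other group was fitted. Ehhadh, the bifunctional enzyme known in rodents as a PPAR-alpha target, passed in no comparison and was -0.13 ± 0.21 in vehicle against chow mice. Hsd17b4, the other bifunctional enzyme, fell by 0.29 ± 0.12 (adjusted p = 0.0405) in vehicle mice and was 0.13 with library totals. Pex11a, a membrane protein of peroxisome division, rose by 0.41 ± 0.17 (adjusted p = 0.0341) in vehicle against chow mice and was 0.33 ± 0.17 (adjusted p = 0.105) without chow mouse 5. The thiolases Acaa1a and Acaa1b have 18.1% and 40.0% of their 31-base words in other genes, chiefly in each other, and are uncertain. Acaa1a rose with chow reversal at 8 weeks by 0.52 ± 0.15 (adjusted p = 0.00634), and Acaa1b passed in no comparison.

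Among the omega-oxidation genes, Cyp4a12a had the largest fold change of the 41 genes in vehicle against chow mice, and Cyp4a14 was among the 3 largest in that comparison and in all 6 of a treatment with vehicle. Cyp4a14 (chromosome 4, 115486200 to 115496142, minus strand), a fatty acid omega-hydroxylase, ranged from 43.1 to 143 CPM with a median of 111 in vehicle mice at 24 weeks, against 232 to 512 CPM with a median of 328 in chow mice. Vehicle and chow mice did not overlap, and Cyp4a14 fell by 1.75 ± 0.38 (adjusted p = 7.87e-05). Few of its 31-base words (1.99%) recur in other genes.

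At 8 weeks Cyp4a14 ranged from 341 to 528 CPM with a median of 434 in semaglutide mice, against 70.98 to 253 CPM with a median of 111 in vehicle mice. At 16 weeks it ranged from 255 to 604 CPM with a median of 443 in semaglutide mice, against 50.5 to 182 CPM with a median of 156 in vehicle mice. At 24 weeks it ranged from 119.6 to 839 CPM with a median of 427 in semaglutide mice. Every semaglutide mouse was above every vehicle mouse at 8 and 16 weeks, and 7 of 8 were at 24 weeks. Cyp4a14 rose by 1.78 ± 0.35 (adjusted p = 0.000458), 1.69 ± 0.35 (adjusted p = 0.0009198) and 2.08 ± 0.38 (adjusted p = 2.98e-05) at the 3 times. With chow reversal it ranged from 203 to 510.1 CPM with a median of 321 at 8 weeks, from 188 to 511 CPM with a median of 303 at 16 weeks and from 3.06 to 553 CPM with a median of 334 at 24 weeks. The lowest value was mouse 7, and the other 7 mice of 24 weeks were above every vehicle mouse. Under chow reversal Cyp4a14 rose by 1.34 ± 0.35 (adjusted p = 0.00197), 1.22 ± 0.35 (adjusted p = 0.005196) and 1.68 ± 0.37 (adjusted p = 0.000188).

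Cyp4a12a (chromosome 4, 115299046 to 115332815, plus strand), known in mice as a male-biased hydroxylase of arachidonic acid, had another pattern. It ranged from 17.98 to 81.4 CPM with a median of 39.5 in vehicle mice at 24 weeks, against 163 to 1214 CPM with a median of 236 in chow mice. There was no overlap between these groups, and Cyp4a12a fell by 3.11 ± 0.50 (adjusted p = 2.99e-07), with a log2 fold change of -2.37 ± 0.46 (adjusted p = 1.49e-05) without chow mouse 5. In semaglutide mice it ranged from 10.8 to 61.1 CPM with a median of 41.4 at 8 weeks, from 12.03 to 76.3 CPM with a median of 29.97 at 16 weeks and from 15.8 to 68.7 CPM with a median of 24.3 at 24 weeks. No semaglutide mouse was above every vehicle mouse of its time, and the values of -0.67 ± 0.45, -0.85 ± 0.44 and -0.19 ± 0.45 did not pass. In chow reversal mice it ranged from 85.4 to 224 CPM with a median of 160.3 at 8 weeks, from 139 to 284 CPM with a median of 189 at 16 weeks and from 6.18 to 263 CPM with a median of 174 at 24 weeks. Of these, 4 of 7, 8 of 8 and 6 of 8 were above every vehicle mouse. Under chow reversal Cyp4a12a rose by 1.29 ± 0.44 (adjusted p = 0.0178), 1.49 ± 0.44 (adjusted p = 0.00688) and 1.96 ± 0.47 (adjusted p = 0.000609).

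Because 62.2% of the 31-base words of Cyp4a12a recur in other genes, chiefly in the copy Cyp4a12b, its counts are uncertain and both copies were also summed. At 24 weeks the sum ranged from 17.7 to 92.02 CPM in semaglutide mice, from 10.4 to 323 CPM in chow reversal mice, from 20.9 to 128 CPM in vehicle mice and from 218 to 1231 CPM in chow mice. Every vehicle mouse was below every chow mouse in the sum, and no semaglutide mouse was above every vehicle mouse.

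Cyp4a10, Cyp4a31 and Cyp4a32 have 44.9%, 31.95% and 62.8% of their words in other genes, so that their split is uncertain too. Cyp4a10, a fatty acid omega-hydroxylase, fell by 1.19 ± 0.32 (adjusted p = 0.00147) in vehicle mice, and at 24 weeks rose by 0.88 ± 0.31 (adjusted p = 0.0311) with semaglutide and by 1.01 ± 0.31 (adjusted p = 0.00757) with chow reversal. The semaglutide call was lost with low counts unfiltered (adjusted p = 0.0538). The chow reversal call was lost when no other group was fitted (adjusted p = 0.145), and both calls were lost with library totals (adjusted p = 0.109 and 0.0718). Summed over the 3 copies, the level at 24 weeks ranged from 137 to 461 CPM in semaglutide mice, from 9.54 to 529.98 CPM in chow reversal mice, from 112 to 212 CPM in vehicle mice and from 242 to 494 CPM in chow mice. In the sum 7 of 8 semaglutide mice and 7 of 8 chow reversal mice were above every vehicle mouse. Cyp4a31, looked at by mouse after its values were seen to run against its neighbours, ranged at 24 weeks from 1.84 to 5.005 CPM with a median of 3.17 in semaglutide mice, from 1.06 to 2.18 CPM with a median of 1.79 in chow reversal mice and from 3.08 to 5.14 CPM with a median of 3.74 in vehicle mice. All 8 chow reversal mice were below every vehicle mouse, and over the 3 times Cyp4a31 fell by 0.75 ± 0.26 (adjusted p = 0.0222), 1.25 ± 0.26 (adjusted p = 8.50e-05) and 1.21 ± 0.26 (adjusted p = 0.000163). Cyp4a32 rose with semaglutide at 24 weeks, by 0.64 ± 0.21 (adjusted p = 0.0222).

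**Figure D2:**
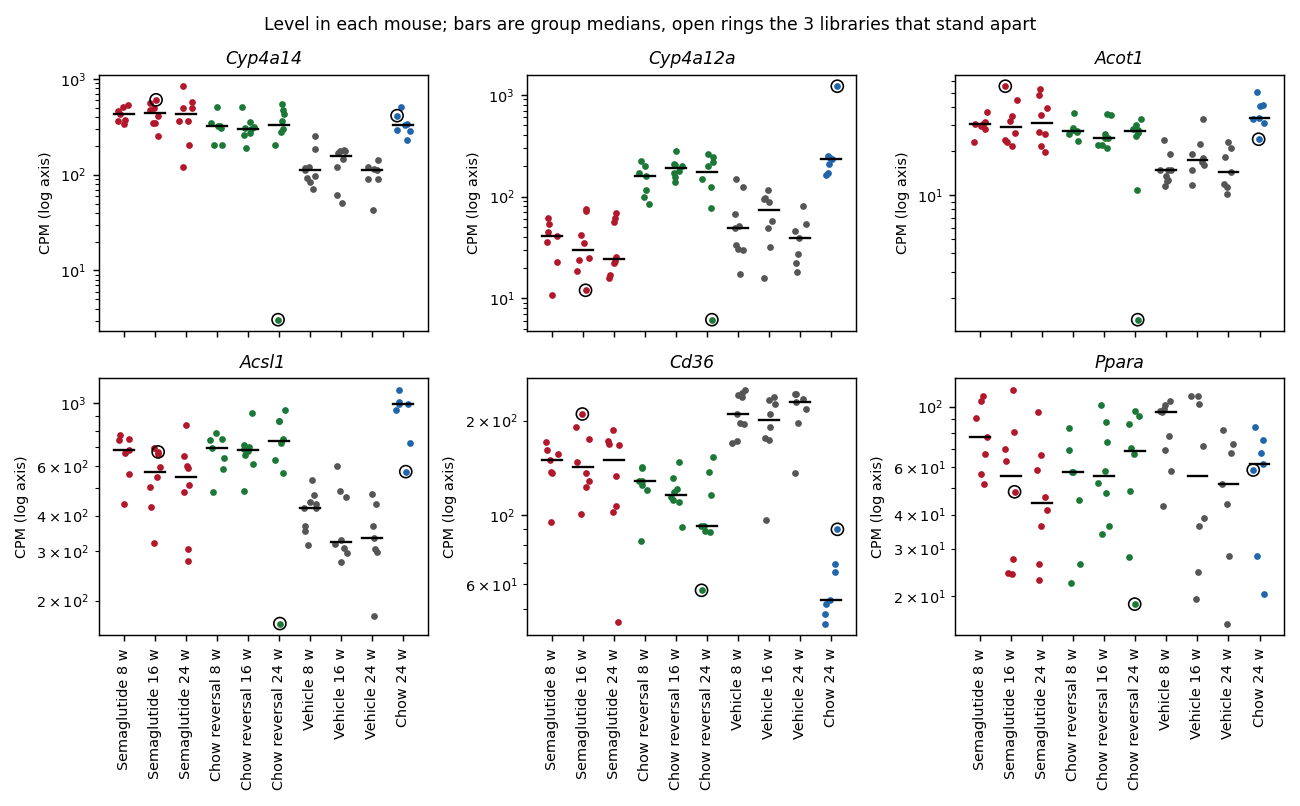
CPM (log axis) of 6 genes in each of the 77 mice, by group. Bars are group medians, and open rings mark chow reversal mouse 7 of 24 weeks, chow mouse 5 and semaglutide mouse 7 of 16 weeks. At 24 weeks median Cyp4a12a is 24.3 CPM in semaglutide mice and 174 CPM in chow reversal mice, and median Cyp4a14 is 427 CPM in semaglutide mice and 334 CPM in chow reversal mice.

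The 4 thioesterase genes lie together on chromosome 12. Acot1, the cytosolic enzyme (84009490 to 84018371, plus strand), ranged from 10.1 to 22.9 CPM with a median of 14.3 in vehicle mice, against 24.03 to 50.5 CPM with a median of 33.5 in chow mice. The groups did not overlap, and Acot1 fell by 1.21 ± 0.27 (adjusted p = 0.000132). In semaglutide mice it ranged from 23.2 to 36.7 CPM with a median of 30.3 at 8 weeks, from 21.5 to 55.2 CPM with a median of 29.2 at 16 weeks and from 19.6 to 52.6 CPM with a median of 31.2 at 24 weeks. Of these, 6 of 7, 3 of 8 and 6 of 8 were above every vehicle mouse of their time. Acot1 rose by 0.97 ± 0.25 (adjusted p = 0.0101), 0.78 ± 0.25 (adjusted p = 0.0292) and 1.10 ± 0.26 (adjusted p = 0.00128), and the value at 16 weeks was 0.65 ± 0.25 (adjusted p = 0.101) without the mouse with muscle transcripts. At 24 weeks chow reversal mice had 1.41 to 33.3 CPM with a median of 27.2, and the value was 0.54 ± 0.26 (adjusted p = 0.0963) with all 8 mice and 0.75 ± 0.21 (adjusted p = 0.00327) without mouse 7.

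Acot2, the mitochondrial enzyme, had the opposite sign to Acot1. It ranged from 7.12 to 14.05 CPM with a median of 9.47 in vehicle mice, against 3.56 to 7.46 CPM with a median of 5.57 in chow mice. Of 7 vehicle mice 6 were above every chow mouse, and Acot2 rose by 0.82 ± 0.24 (adjusted p = 0.00296). The chow reversal mice had 0.707 to 8.05 CPM with a median of 5.08 at 24 weeks, and it fell with chow reversal at 16 weeks by 0.73 ± 0.22 (adjusted p = 0.00812) and at 24 weeks by 0.97 ± 0.23 (adjusted p = 0.000532). Semaglutide mice of 24 weeks ranged from 4.11 to 12.6 CPM with a median of 6.43, and the value of -0.35 ± 0.23 (adjusted p = 0.269) did not pass. Acot1 and Acot2 have 22.7% and 37.3% of their words in other genes, chiefly in each other, and are uncertain. Their sum at 24 weeks ranged from 25.96 to 65.2 CPM in semaglutide mice and from 17.2 to 35.1 CPM in vehicle mice, with 5 of 8 semaglutide mice above every vehicle mouse. The ratio of means of the sum was 0.608 for vehicle against chow, with 5 of 7 vehicle mice below every chow mouse. For chow reversal against vehicle it was 1.12 at 16 weeks and 1.10 at 24 weeks. At 24 weeks Acot1 averaged 36.2 CPM in chow and 15.7 CPM in vehicle mice, and Acot2 5.41 and 9.58 CPM. The sum thus follows Acot1, its larger part, and cannot show whether Acot2 moved the other way.

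Acot3 and Acot4, the peroxisomal enzymes, rose with semaglutide at 24 weeks by 2.11 ± 0.62 (adjusted p = 0.00864) and 0.86 ± 0.25 (adjusted p = 0.00885). Acot3, looked at by mouse after its values were seen, ranged from 10.6 to 182 CPM with a median of 21.1 in semaglutide mice, against 5.502 to 21.3 CPM with a median of 6.82 in vehicle mice. The groups overlapped, with 4 of 8 semaglutide mice above every vehicle mouse. At 16 weeks Acot3 was 2.44 ± 0.60 (adjusted p = 0.00472) with all 8 semaglutide mice and 1.49 ± 0.56 (adjusted p = 0.0897) without the mouse with muscle transcripts, and Acot4 was 0.81 ± 0.24 (adjusted p = 0.0197) and 0.57 ± 0.24 (adjusted p = 0.126). In vehicle against chow mice Acot4 fell by 0.64 ± 0.26 (adjusted p = 0.0349), and was -0.54 ± 0.27 (adjusted p = 0.0891) without chow mouse 5. Acot3 has 23.1% of its words in other genes and is uncertain.

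Bdh1, the mitochondrial dehydrogenase of ketone bodies, passed in no comparison. At 24 weeks it ranged from 218 to 333 CPM with a median of 280.1 in semaglutide mice, from 87.2 to 316 CPM with a median of 254 in chow reversal mice, from 198 to 259.9 CPM with a median of 225 in vehicle mice and from 204 to 273 CPM with a median of 249 in chow mice. The groups overlapped, and the semaglutide value was 0.29 ± 0.12 (adjusted p = 0.0593). Pdk4, the kinase that holds back pyruvate oxidation, ranged from 2.01 to 4.88 CPM with a median of 3.12 in semaglutide mice, from 1.91 to 8.99 CPM with a median of 6.55 in chow reversal mice, from 3.505 to 13.3 CPM with a median of 6.82 in vehicle mice and from 2.74 to 14.6 CPM with a median of 3.48 in chow mice at 24 weeks. Of 8 semaglutide mice 5 were below every vehicle mouse, and Pdk4 fell by 1.13 ± 0.42 (adjusted p = 0.0374). At 16 weeks the semaglutide mouse with muscle transcripts had 34.7 CPM of Pdk4, and the value was 0.30 ± 0.39 with it and -0.72 ± 0.34 (adjusted p = 0.185) without it.

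Of the uptake genes, Cd36 (chromosome 5, 17781690 to 17888801, minus strand), a fatty acid translocase that macrophages also carry, ranged from 136 to 244 CPM with a median of 229.8 in vehicle mice, against 44.96 to 89.9 CPM with a median of 53.5 in chow mice. Vehicle and chow mice did not overlap, and Cd36 rose by 1.82 ± 0.19 (adjusted p = 1.42e-12). In semaglutide mice it ranged from 94.99 to 171 CPM with a median of 150.00 at 8 weeks, from 101 to 209.99 CPM with a median of 142 at 16 weeks and from 45.4 to 186 CPM with a median of 149.9 at 24 weeks. With semaglutide Cd36 fell by 0.57 ± 0.18 (adjusted p = 0.0427) at 8 weeks, was -0.35 ± 0.18 (adjusted p = 0.183) at 16 weeks, which did not pass, and at 24 weeks fell by 0.67 ± 0.18 (adjusted p = 0.00472). The call at 8 weeks was lost with a block on library number, at -0.53 (adjusted p = 0.0626), and with low counts unfiltered, at -0.54 (adjusted p = 0.101). In chow reversal mice it ranged from 82.6 to 142 CPM with a median of 128 at 8 weeks, from 91.8 to 147 CPM with a median of 116 at 16 weeks and from 57.4 to 153 CPM with a median of 91.9 at 24 weeks. Under chow reversal Cd36 fell by 0.78 ± 0.18 (adjusted p = 0.0004903), 0.71 ± 0.18 (adjusted p = 0.00123) and 1.06 ± 0.18 (adjusted p = 2.64e-06). Macrophage marker sums, given above for vehicle and chow mice, ran in the same direction, and their part was not tested.

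Vnn1, a pantetheinase of the hepatocyte surface, ranged from 67.5 to 107 CPM with a median of 86.8 in vehicle mice, against 31.2 to 60.4 CPM with a median of 35.3 in chow mice. There was no overlap between these groups, and Vnn1 rose by 1.13 ± 0.23 (adjusted p = 3.16e-05). At 24 weeks chow reversal mice had 7.95 to 89.2 CPM with a median of 50.6, and it fell at 8 weeks by 0.58 ± 0.22 (adjusted p = 0.0328) and at 24 weeks by 0.73 ± 0.22 (adjusted p = 0.00654). The call at 8 weeks was lost with low counts unfiltered (adjusted p = 0.0746). The call at 24 weeks was lost when no other group was fitted (adjusted p = 0.109). The semaglutide mice had 41.04 to 99.2 CPM with a median of 76.02 at 24 weeks, and the value of -0.27 ± 0.22 (adjusted p = 0.3796) did not pass.

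Fabp1, whose promoter is printed above, was looked at by mouse after its values were seen (chromosome 6, 71199827 to 71205023, plus strand). At 24 weeks it ranged from 2775 to 4802 CPM with a median of 3551 in semaglutide mice, from 649 to 4787 CPM with a median of 2911 in chow reversal mice, from 1394 to 2924 CPM with a median of 1754 in vehicle mice and from 1516 to 4144 CPM with a median of 3574 in chow mice. Of 8 semaglutide mice 7 were above every vehicle mouse. Fabp1 fell by 0.78 ± 0.22 (adjusted p = 0.00256) in vehicle against chow mice and rose with semaglutide at 24 weeks by 0.91 ± 0.22 (adjusted p = 0.00123). At 16 weeks it was 0.70 ± 0.21 (adjusted p = 0.0187) with all 8 semaglutide mice and 0.65 ± 0.22 (adjusted p = 0.0529) without the mouse with muscle transcripts. With chow reversal at 24 weeks it was 0.52 ± 0.21 (adjusted p = 0.0513) with all 8 mice and 0.68 ± 0.20 (adjusted p = 0.00378) without mouse 7.

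Per kilobase of longest transcript, mean levels in vehicle mice at 24 weeks were highest for Fabp1 (3519 CPM per kb), then Acaa1b (1292 CPM per kb) and Acaa2 (464 CPM per kb). Ppara was at 15.1 CPM per kb and Cyp4a31, the lowest of the 41, at 1.59 CPM per kb. Cyp4a14 averaged 172 CPM per kb in semaglutide mice, 131 in chow reversal mice, 40.9 in vehicle mice and 138 in chow mice.

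Counted over the pathway, semaglutide raised 3 of the 41 genes and lowered 1 at 8 weeks, against 2.24% higher and 3.51% lower among all genes tested. At 16 weeks 6 were higher and 0 lower in edgeR, against 6.44% higher and 5.80% lower. Beside that 0, 1 gene was lower at an unadjusted p under 0.05 and DESeq2 also called 0 lower. At 24 weeks 14 were higher and 2 lower, against 10.8% higher and 13.6% lower. The medians over the 41 genes were 0.12, 0.12 and 0.23, and those over all genes -0.00, -0.00 and -0.01. Cyp4a14 and Acot1 were higher at all 3 times. The count at 16 weeks was 2, Cyp4a14 and Etfa, without the mouse with muscle transcripts, against 3.75% higher among all genes in that fit. With all mice the count was 1, Cyp4a14, both with a block on library number and when no other group was fitted. Over all genes 330 were higher with the block and 185 when no other group was fitted. The sets of the block run across the groups, except that the 3 semaglutide libraries numbered outside the run form their own set. That set holds semaglutide mice only, the mouse with muscle transcripts among them. With library totals the median of all genes shifted by -0.23 at 24 weeks. Of all 14904 genes, 510 were then higher and 4340 lower (10.52% of calls higher), against 1604 higher and 2021 lower with TMM. Of the 41 genes, 6 were higher and 5 lower with library totals. Hepatocyte markers were higher in 4, 6 and 8 of 9 over the 3 times, with sums at 24 weeks of 72483 to 127289 CPM in semaglutide mice and 52718 to 67711 CPM in vehicle mice. Macrophage markers were lower in 0, 3 and 6 of 10 and 1 was higher at 24 weeks, with sums of 494 to 1086 CPM in semaglutide mice and 824 to 1312 CPM in vehicle mice. Their part in the counts was not tested.

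Chow reversal raised 13 of the 41 genes and lowered 3 at 8 weeks, against 14.2% higher and 17.9% lower among all genes. At 16 weeks 8 were higher and 3 lower, against 12.1% higher and 16.2% lower, and at 24 weeks 10 were higher and 4 lower, against 17% higher and 19.1% lower. The medians over the 41 genes were 0.21, 0.19 and 0.19. Acsl1, Acaa2, Etfa, Abcd3, Cyp4a12a and Cyp4a14 were higher at all 3 times, and Cyp4a31 and Cd36 were lower at all 3. Without mouse 7 the counts at 24 weeks were 20 higher and 4 lower, against 20.5% higher and 20.6% lower in that fit, and the 10 genes gained were Slc25a20, Cpt2, Acadl, Acadm, Hsd17b4, Acaa1a, Eci2, Cyp4a32, Acot1 and Fabp1. With library totals the median of all genes shifted by -0.30 at 24 weeks. Of all 14904 genes, 687 were then higher and 5453 lower (11.19% of calls higher), against 2530 higher and 2849 lower with TMM. Of the 41 genes, 3 were higher and 9 lower with library totals. Hepatocyte markers were higher in 7, 7 and 8 of 9, with sums at 24 weeks of 84685 to 118550.1 CPM in chow reversal mice and 52718 to 67711 CPM in vehicle mice. Macrophage markers were lower in 7, 8 and 8 of 10, with sums of 103 to 602 CPM in chow reversal mice and 824 to 1312 CPM in vehicle mice. Their part in the counts was not tested. Both treatments share the same vehicle mice, so their values stand side by side only.

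**Figure D3:**
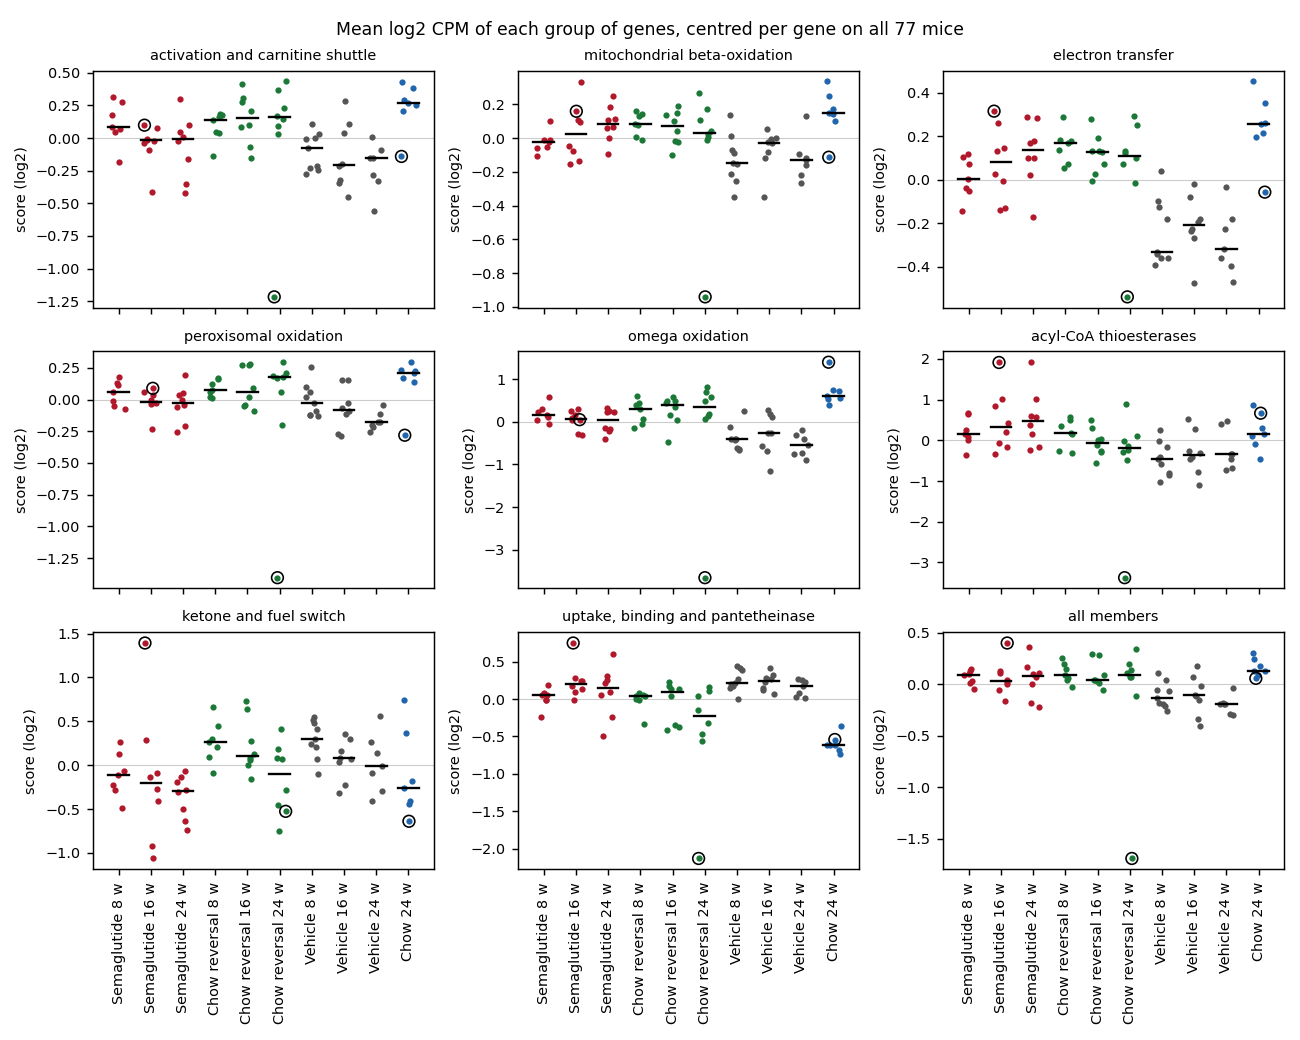
Mean log2 CPM of the genes of each step of the pathway in each mouse, centred per gene on all 77 mice. Bars are group medians, and open rings mark the same 3 libraries as in the plot of levels by mouse. In the panel of all 41 genes chow reversal mouse 7 of 24 weeks lies at -1.69, and the next lowest of its group at -0.11.

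The scores by step, a description of the same mice, put the steps side by side at 24 weeks. The electron transfer score had a median of 0.14 in semaglutide mice, 0.11 in chow reversal mice, -0.32 in vehicle mice and 0.26 in chow mice. The omega oxidation score had a median of 0.03 in semaglutide mice, 0.33 in chow reversal mice, -0.54 in vehicle mice and 0.59 in chow mice. For both steps the vehicle median was the lowest and the chow median the highest, as for activation and shuttle, mitochondrial beta-oxidation and peroxisomal oxidation. For uptake and binding the vehicle median was the highest, at 0.17, and the chow median the lowest, at -0.61. For Bdh1 with Pdk4 the vehicle median was also the highest, at -0.01, against -0.26 in chow mice. The thioesterase score had its highest median in semaglutide mice, at 0.47, against 0.15 in chow mice. It ranged from -0.24 to 1.92 in semaglutide mice and from -0.45 to 0.86 in chow mice, which overlapped.

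Whether semaglutide and chow reversal differed was tested directly. At 8 weeks 2 of the 41 genes differed, against 6.16% of all genes, at 16 weeks 3, against 9.80%, and at 24 weeks 5, against 16.5%. Cyp4a12a was lower in semaglutide than in chow reversal mice at each time, at -1.97 ± 0.48 (adjusted p = 0.00575), -2.34 ± 0.46 (adjusted p = 0.000225) and -2.14 ± 0.45 (adjusted p = 0.000569). Every semaglutide mouse was below every chow reversal mouse at 8 and 16 weeks. Cyp4a31 was higher in semaglutide mice at each time, at 1.07 ± 0.28 (adjusted p = 0.00911), 1.09 ± 0.26 (adjusted p = 0.00273) and 0.91 ± 0.26 (adjusted p = 0.0117). Its mean at 24 weeks was only 3.23 CPM in semaglutide and 1.74 CPM in chow reversal mice. With 31.95% of its words in other genes, its counts are uncertain. Summed with Cyp4a10 and Cyp4a32, the ratio of semaglutide to chow reversal means was 1.04, 0.945 and 0.923 at the 3 times. Cyp4a10 alone averaged 271 CPM in semaglutide and 298 CPM in chow reversal mice at 24 weeks. The sum thus follows Cyp4a10 and cannot show whether Cyp4a31 differed. Acot3 was higher at 16 weeks, at 1.80 ± 0.59 (adjusted p = 0.0358), and at 24 weeks, at 1.79 ± 0.59 (adjusted p = 0.0281), and the value at 16 weeks was 0.85 ± 0.56 (adjusted p = 0.392) without the mouse with muscle transcripts. At 24 weeks Abcd3 was lower, at -0.38 ± 0.14 (adjusted p = 0.0461), and Acot2 higher, at 0.62 ± 0.23 (adjusted p = 0.0474). With a block on library number Acot3 did not pass at 16 weeks, and at 24 weeks 2 genes passed, Cyp4a12a and Cyp4a31, with Abcd3, Acot2 and Acot3 at adjusted p = 0.0617, 0.0597 and 0.0626. The share over all genes was not tabulated for that fit. Cyp4a14 did not pass at any time, with values of 0.44 ± 0.37, 0.48 ± 0.34 and 0.40 ± 0.34.

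Without chow reversal mouse 7 the count at 24 weeks was 8, against 10.2% higher and 10.4% lower among all genes in that fit. Acsl1 (-0.52 ± 0.18), Acadm (-0.33 ± 0.12), Etfdh (-0.31 ± 0.10) and Hsd17b4 (-0.33 ± 0.10) were then lower in semaglutide mice, and Acot2 no longer passed, at 0.45 ± 0.20 (adjusted p = 0.0955). At 16 weeks Pdk4 was -0.12 ± 0.39 with the mouse with muscle transcripts and -1.16 ± 0.34 (adjusted p = 0.0232) without it.

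**Figure D4:**
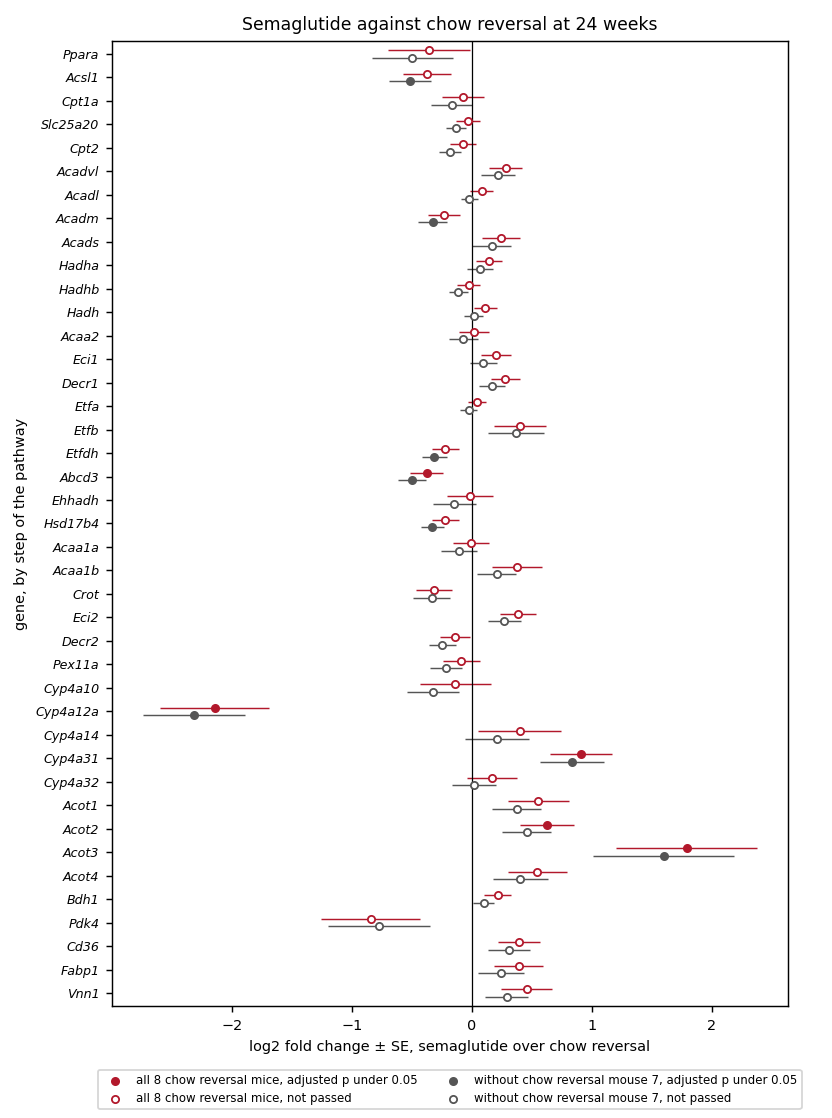
Log2 fold change ± SE of the 41 genes in semaglutide over chow reversal mice at 24 weeks, with all 8 chow reversal mice and without mouse 7. Filled points have an adjusted p under 0.05 by edgeR, 5 genes with all mice and 8 without mouse 7.

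The distance to chow mice was tested at 24 weeks. In semaglutide mice 10 of the 41 genes differed from chow mice, 2 higher and 8 lower, against 31.4% of all genes in either direction. Cyp4a12a was lower, at -3.29 ± 0.48, or -2.52 ± 0.44 without chow mouse 5. The other lower genes were Acsl1 (-0.77 ± 0.21), Crot (-0.71 ± 0.16), Abcd3 (-0.58 ± 0.14), Etfdh (-0.47 ± 0.12), Acadm (-0.43 ± 0.14), Hsd17b4 (-0.39 ± 0.12) and Cpt2 (-0.31 ± 0.11). The higher genes were Cd36 (1.16 ± 0.19) and Vnn1 (0.86 ± 0.22). In chow reversal mice 1 of the 41 genes differed from chow mice, against 6.63% of all genes. That gene was Cd36, at 0.77 ± 0.18 (adjusted p = 0.00455), with 5 of 8 chow reversal mice above every chow mouse. The call was lost when no other group was fitted, at 0.77 (adjusted p = 0.0720). Cyp4a14 passed in neither, at 0.32 ± 0.36 for semaglutide and -0.07 ± 0.36 for chow reversal.

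Whether the effects differed between 24 and 8 weeks was tested as a difference of differences. For semaglutide 0 of the 41 genes passed in edgeR, against 0.0604% of all genes, with 1 gene at an unadjusted p under 0.05 and 0 past the threshold in DESeq2. For chow reversal 0 of the 41 passed in edgeR, against 0.215% of all genes, with 1 gene at an unadjusted p under 0.05 and 0 past the threshold in DESeq2. Vehicle mice at 24 weeks differed from vehicle mice at 8 weeks in 1 of the 41 genes, against 0.792% of all genes. This was Crot, which ranged from 225 to 401 CPM at 24 weeks, against 349.9 to 589.99 CPM at 8 weeks, and fell by 0.58 ± 0.16 (adjusted p = 0.04802). The call was lost with a block on library number (adjusted p = 0.0547), with low counts unfiltered (adjusted p = 0.0836) and with library totals (adjusted p = 0.112).

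Beyond the 41 genes, 36 of 60 other oxidation and ketogenesis genes tested were lower and 6 higher in vehicle than in chow mice, against 22.0% lower and 25.8% higher among all genes. With semaglutide at 24 weeks 17 of the 60 were higher and 6 lower, against 10.8% higher and 13.6% lower among all genes. With chow reversal at 24 weeks 25 were higher and 4 lower, against 17% higher and 19.1% lower. Hacl1, the lyase of peroxisomal alpha-oxidation, fell by 2.04 ± 0.18 in vehicle mice, and at 24 weeks rose by 1.01 ± 0.17 with semaglutide and by 1.63 ± 0.17 with chow reversal. Acot9, a mitochondrial thioesterase, rose by 2.33 ± 0.17 in vehicle mice, and at 24 weeks fell by 1.09 ± 0.15 with semaglutide and by 1.84 ± 0.15 with chow reversal. Of 33 other PPAR-alpha targets tested, 11 were higher and 6 lower in vehicle than in chow mice, 5 were higher and 8 lower with semaglutide at 24 weeks, and 6 were higher and 9 lower with chow reversal. Among all genes the shares were those just given, 25.8% higher and 22.0% lower in vehicle than in chow mice, 10.8% and 13.6% with semaglutide, and 17% and 19.1% with chow reversal. The lipid droplet gene Cidec and the mitochondrial carrier Ucp2 rose in vehicle mice, by 4.82 ± 0.49 and 2.47 ± 0.20, and fell with semaglutide, by 1.52 ± 0.39 and 0.75 ± 0.19. Other targets went up with treatment at 24 weeks, Retsat by 0.86 ± 0.22 with semaglutide and Aldh9a1 by 0.72 ± 0.11 with chow reversal.

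Of 20 regulators of oxidation, 6 were lower and 2 higher in vehicle than in chow mice, 7 were higher and 2 lower with semaglutide at 24 weeks, and 5 were higher and 2 lower with chow reversal. Among all genes 22.0% were lower and 25.8% higher in vehicle than in chow mice, 10.8% higher and 13.6% lower with semaglutide, and 17% higher and 19.1% lower with chow reversal. Klf15, a transcription factor of the fasted liver, fell by 1.06 ± 0.17 in vehicle mice, and at 24 weeks rose by 0.78 ± 0.16 with semaglutide and by 0.77 ± 0.16 with chow reversal. Hnf4a, a nuclear receptor that is also 1 of the hepatocyte markers, fell by 0.81 ± 0.13 in vehicle mice, and rose by 0.53 ± 0.13 with semaglutide and by 0.75 ± 0.13 with chow reversal. Sirt3, a mitochondrial deacetylase, fell by 0.61 ± 0.14 in vehicle mice and rose by 0.67 ± 0.13 with semaglutide.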

How the data were processed

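Liver RNA of 77 mice, taken from the left lateral lobe, was made into strand-specific libraries and sequenced once per mouse. The authors aligned reads to GRCm38 with STAR 2.7.3a, checked them with FastQC 0.11.9 and Picard, and deposited Salmon 1.2.0 estimated counts per gene, of which 7.55% were fractional. The counts were rounded here. Rows with no gene name (346, with 0.0396% of counts) were not removed, and any that passed the filter entered library sizes and tests. Groups came from the sample labels, and mouse numbers within a group follow accession order and pair no mice. Library numbers run in consecutive sets with about 1 library of each group, apart from 3 semaglutide libraries numbered outside the run. Those 3 formed a set of their own in the block on library number.

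In R 4.3.3, edgeR 4.0.16 (with limma 3.58.1) fitted all 10 groups in 1 quasi-likelihood model after TMM scaling and filterByExpr by group, which left 14904 genes. P-values were adjusted over them after Benjamini and Hochberg, and 0.05 was the threshold. The SE is the size of the log2 fold change divided by the square root of F. The test was tried on simulated data. Library totals of 8883190 to 37631125 set the precision. The p-values set a group difference against a spread between mice that was estimated over all 10 groups together. Estimated counts split reads between near-identical copies by a model, so the share of 31-base words of each gene that recur in other genes was computed, and genes with a large share are called uncertain.

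The members and lists were chosen with earlier results of these data known. Per step of the pathway, values by mouse are given for the 2 genes with the smallest p in vehicle against chow, semaglutide against vehicle or chow reversal against vehicle at 24 weeks, and for Ppara. Of each list of other genes, the 3 with the smallest p in each of these comparisons could be named. Alternatives were RLE factors, library totals, no filter on low counts, a block on these sets of library numbers, only the compared groups in the fit, 3 libraries left out, and DESeq2 1.42.0, plus 3 chosen after seeing the data, each leaving out 1 library. Protein features were not analysed here. Some genes of the pathway are not reported here. Figures were drawn with matplotlib 3.10.9.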

Additional observations from a re-analysis of the deposited data

Results flagged for a closer look

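Among 270 groups of 7 to 9 mice checked for a mouse far from the rest, 32 had one. Chance gives about 1 in 20 for independent, normally spread values. Here genes and scores share the same mice and gene levels were unlogged CPM, so the 32 cannot be judged against that rate. Chow reversal mouse 7 of 24 weeks was far below its group for Cpt2 (62.6 CPM, next 133 CPM), Acadm (165.7 CPM, next 290.4 CPM), Etfa (241 CPM, next 355 CPM) and Bdh1 (87.2 CPM, next 210.0 CPM). The scores of the same mouse were far below its group for activation and shuttle (-1.22), mitochondrial beta-oxidation (-0.94), electron transfer (-0.54), peroxisomal oxidation (-1.40), omega oxidation (-3.65), thioesterases (-3.37), uptake and binding (-2.13) and all 41 genes (-1.69). The acute phase transcripts that were highest in that mouse are given in the report, and their part was not tested.

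Chow mouse 5 was far above its group for Cyp4a12a (1214 CPM, next 249 CPM) and for the omega oxidation score (1.39, next 0.74), and far below it for Etfdh (235 CPM, next 295 CPM) and for the scores of activation and shuttle (-0.14) and peroxisomal oxidation (-0.28). Semaglutide mouse 7 of 16 weeks, which held striated muscle transcripts, was far above its group for Pdk4 (34.7 CPM, next 7.56 CPM) and for the score of uptake and binding (0.75). Semaglutide mouse 8 of 16 weeks was far below the same group for the scores of activation and shuttle (-0.42) and peroxisomal oxidation (-0.24).

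Of the remaining mice, semaglutide mouse 4 of 16 weeks was high for Acaa2 (1464 CPM), and vehicle mouse 3 of 24 weeks was high for Acaa2 (986 CPM) and for the mitochondrial score (0.13). Chow reversal mouse 2 of 8 weeks was low for Cd36 (82.6 CPM), Vnn1 (46.0 CPM) and the score of uptake and binding (-0.33). Chow reversal mouse 3 of 8 weeks was low for Crot (349 CPM), chow reversal mouse 4 of 8 weeks high for Acot1 (36.5 CPM) and semaglutide mouse 3 of 8 weeks low for Abcd3 (328 CPM). Vehicle mouse 2 of 16 weeks was low for Cd36 (96.3 CPM) and vehicle mouse 6 of 16 weeks for the mitochondrial score (-0.35).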

How the results depend on the processing

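Of the 114 calls of the 41 genes over all comparisons, 113 were kept with RLE factors and 113 with DESeq2, 106 without the 3 libraries of outlying number, 98 with a block on library number, 93 when the fit held only the groups compared, 95 when low counts were left unfiltered and 61 with library totals. With library totals 48 were lost and 5 turned, all in vehicle against chow, to 0.1434 for Slc25a20, 0.0269 for Cpt2, 0.0471 for Acadvl, 0.1113 for Acadl and 0.1311 for Hsd17b4. With library totals the counts for semaglutide were 2 lower at 8 weeks, 3 higher and 1 lower at 16 weeks and 6 higher and 5 lower at 24 weeks. For chow reversal they were 3 higher and 11 lower, 4 higher and 8 lower, and 3 higher and 9 lower at the 3 times, for vehicle against chow 12 higher and 7 lower, and for vehicle at 24 against 8 weeks 0. Over all genes with library totals, semaglutide had 154 higher and 1054 lower, 357 and 2367, and 510 and 4340 at the 3 times. Chow reversal had 667 higher and 5936 lower, 593 and 5069, and 687 and 5453, and vehicle against chow 7776 and 887. With only the compared groups the counts of the 41 genes were 12 higher and 4 lower for semaglutide at 8 weeks and 1 higher at 16 weeks, 22 higher and 7 lower for chow reversal at 8 weeks and 6 higher at 24 weeks, 11 and 2 for semaglutide against chow reversal at 8 and 24 weeks, and 0 for chow reversal against chow. Over all genes of those fits, semaglutide had 940 higher and 1175 lower at 8 weeks and 185 higher at 16 weeks. Chow reversal had 3158 higher and 3282 lower at 8 weeks and 1388 higher at 24 weeks. With no filter the counts of the 41 genes were 0 lower for semaglutide at 8 weeks and 1 lower at 24 weeks, 1 lower for chow reversal at 8 weeks, 3 for semaglutide against chow reversal at 24 weeks and 0 for vehicle at 24 against 8 weeks. Over all genes of that fit, 302 and 1741 were lower for semaglutide at 8 and 24 weeks and 2080 for chow reversal at 8 weeks. With the block on library number the counts of the 41 genes were 0 lower for semaglutide at 8 weeks and 1 higher at 16 weeks, 2 for semaglutide against chow reversal at 24 weeks and 0 for vehicle at 24 against 8 weeks. Over all genes with the block, 442 were lower for semaglutide at 8 weeks and 330 higher at 16 weeks. Without the 3 libraries of outlying number 2 of the 41 genes were higher for semaglutide at 16 weeks, against 371 over all genes. In that setting 3 differed for semaglutide against chow reversal at 24 weeks, and DESeq2 called 2 for chow reversal against chow. Counts over all genes in these settings were not tabulated for semaglutide against chow reversal, chow reversal against chow or vehicle at 24 against 8 weeks. The counts of the 41 genes for these comparisons thus have no share to be set against and are not read as a result. The cause was not tested.

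Alternatives chosen after seeing the data left out 1 library each. Without semaglutide mouse 7 of 16 weeks 2 genes were higher with semaglutide, against 3.75% of all genes. Without chow reversal mouse 7 the count at 24 weeks was 20 higher for chow reversal, against 20.5% of all genes. For semaglutide against chow reversal it was then 8, against 10.2% higher and 10.4% lower among all genes. The labels pair no mice, and the block on sets of library numbers was the blocked fit that was run.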
